A study of Mus musculus with 6 samples.

Results

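The genes described here are the nuclear genes for proteins of the mitochondrial ribosome, measured in the gastrocnemius, a hindlimb muscle, of 3-month-old mice. Members were the rows of the deposited count matrix whose gene ID maps to a mouse symbol made of Mrpl or Mrps, a number and at most 1 letter, and whose raw counts summed to 60 or more over the 6 libraries. Of 57010 rows, 78 had such a symbol and 77 met the count minimum. They comprised 50 proteins of the large subunit, 26 of the small subunit and Mrps36, which carries a small-subunit name but is now assigned to the 2-oxoglutarate dehydrogenase complex. Mrpl53 was the row left out. It had 0 read pairs in every library, in the unstranded column and in both strand columns. In GENCODE M21 its exons share bases with Gm42688 on the same strand and Ccdc142os on the opposite one. The members with the fewest read pairs were Mrps6, with 1569 over the 6 libraries, and Mrps18c, with 1573, so no member lay near the minimum. Both share exon bases with genes on the same strand, Mrps6 with Slc5a3 and Gm49711 and Mrps18c with Gm43511. Read pairs in such overlaps stay unassigned in the unstranded and the strand-matched columns, so both counts may be too low. All 77 also passed the filter on low counts used for testing, and the lowest count of a member in any library was 206.

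The mitochondrial ribosome translates the few mRNAs encoded by mitochondrial DNA, all of which specify subunits of the oxidative phosphorylation complexes. Its rRNAs are transcribed inside the organelle, whereas all of its proteins are encoded in the nucleus, made in the cytosol and imported. Some of these proteins have counterparts in the bacterial ribosome and others are found only in mitochondrial ribosomes. Skeletal muscle fibres are rich in mitochondria, most of all the slow and fast oxidative types, and the gastrocnemius mixes oxidative and glycolytic fibres.

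The mutants were 3 homozygous animals of the B6.A-Dysfprmd/GeneJ line, labelled BLAJ, which carry the Dysf prmd allele of strain A/J on a C57BL/6 background. The controls were 3 mice labelled C57BL/6, and neither group was treated. Mutant replicates 1 and 2 were female, and mutant replicate 3 and all 3 controls were male. RNA from each muscle was made into poly(A)-selected, directional libraries, so rRNA was seen only as far as poly(A) selection let it through. Whole muscle was used, and fewer mitochondria or cells of a type cannot be told apart from less RNA per cell.

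Library totals were 35042245 to 40230648 read pairs in mutants and 40367595 to 43733641 in controls. Dysf, which encodes dysferlin, a membrane repair protein of the muscle fibre, stood at 15.8, 14.7 and 20.3 CPM (read counts scaled to library size) in mutant replicates 1, 2 and 3, against 72.3, 99.9 and 145.3 CPM in control replicates 1, 2 and 3 (log2 fold change -2.64 ± 0.28 (SE), edgeR adjusted p = 0.0249). The sex-linked genes Xist and Ddx3y followed the labelled sexes in all 6 libraries. Ifi202b, which C57BL/6 mice are known not to express, reached 1.02 to 7.69 CPM in controls and had 0 counts in mutants. H2-Ea-ps, the Ea gene of the H2 locus, which C57BL/6 mice likewise are known not to express, had 1 count in all mutants together and 2.37 to 3.44 CPM in controls. The values of both genes in the libraries labelled C57BL/6 go against that label. These libraries are called controls throughout, and the part of genetic background in the results was not tested. The 8 genes that mark fast skeletal muscle were abundant in every library, at a summed 153400 to 189500 CPM in mutants and 144500 to 199500 CPM in controls. Control replicate 2 stood apart in genes of regenerating or denervated fibres, at a summed 1051 CPM, against 62.3 to 101.8 CPM in mutants and 51.9 and 78.2 CPM in the other controls. Sln alone gave 678.3 CPM of that sum. Myh8, at 8.47 CPM, lay within the range of the other libraries, 5.29 to 19.7 CPM. Every other marker of this list was highest in control replicate 2. The female mutants cannot be matched to female controls, so sex is spread unevenly over the groups.

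Promoter windows are shown first, because many of these genes are transcribed from short promoters with recurring motifs. RefSeq windows on GRCm38.p6, reaching from 250 bases before to 50 bases after the start, were at hand for 68 of the 77 members. Each window of 300 bases was searched on both strands for 3 motifs. These were CCGGAAG, recognised by ETS factors such as GABPA, AAGATGG, the core of the YY1 motif, and GCATGCG, a core of the NRF1 motif. The last 3 letters of the ETS motif are the first 3 of the YY1 core, so 1 stretch can hold both. The ETS motif lay in 25 of the 68 windows (36.8%), against 18.5% of the windows of all tested genes with one and 9.93% of all windows in the table. The YY1 core lay in 13 windows (19.1%), among them those of Mrps11, Mrps12, Mrps18a and Mrpl42, against 8.01% of tested genes and 7.28% of all windows. The NRF1 core lay in 8 windows (11.8%), among them those of Mrpl10 and Mrps18b, against 6.80% of tested genes and 4.01% of all windows. At least 1 of the 3 motifs was found in 37 members.

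Windows of 4 members are printed 5′ to 3′ on the strand of the gene, in lower case, with any match to the 3 motifs in capitals. Mrps14 has the highest fold change of all members and a window without a match. Mrps12 encodes a protein of the decoding site and holds an ETS match on its own strand that begins at base 252, just past the start, and a YY1 core on the opposite strand from base 53. Mrps11 and Mrpl46 lie head to head, with starts 42 bases apart and 141 bases of the windows in common, and the Mrps11 window holds the YY1 core on the opposite strand from base 145. A match is a string of letters and not a measured binding site.
Mrps14, chr1:160194965-160195264, plus strand: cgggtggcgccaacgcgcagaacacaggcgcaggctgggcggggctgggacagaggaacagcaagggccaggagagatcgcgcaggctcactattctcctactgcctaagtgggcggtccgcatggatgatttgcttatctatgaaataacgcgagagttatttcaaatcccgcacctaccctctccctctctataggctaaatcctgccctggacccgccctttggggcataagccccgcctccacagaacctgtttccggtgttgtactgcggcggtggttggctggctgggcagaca
Mrps12, chr7:28741772-28742071, minus strand: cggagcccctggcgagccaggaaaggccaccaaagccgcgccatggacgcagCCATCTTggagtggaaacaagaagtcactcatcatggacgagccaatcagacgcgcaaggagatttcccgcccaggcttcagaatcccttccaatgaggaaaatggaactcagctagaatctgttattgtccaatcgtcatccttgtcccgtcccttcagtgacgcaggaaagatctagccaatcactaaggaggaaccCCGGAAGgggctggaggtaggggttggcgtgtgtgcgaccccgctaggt
Mrps11, chr7:78782881-78783180, plus strand: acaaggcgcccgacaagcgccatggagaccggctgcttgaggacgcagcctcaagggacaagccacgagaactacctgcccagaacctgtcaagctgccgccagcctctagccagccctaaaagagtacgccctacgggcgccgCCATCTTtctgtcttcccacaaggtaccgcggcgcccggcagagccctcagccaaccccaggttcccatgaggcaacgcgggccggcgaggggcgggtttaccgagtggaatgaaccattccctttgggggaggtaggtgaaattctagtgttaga
Mrpl46, chr7:78783040-78783339, minus strand: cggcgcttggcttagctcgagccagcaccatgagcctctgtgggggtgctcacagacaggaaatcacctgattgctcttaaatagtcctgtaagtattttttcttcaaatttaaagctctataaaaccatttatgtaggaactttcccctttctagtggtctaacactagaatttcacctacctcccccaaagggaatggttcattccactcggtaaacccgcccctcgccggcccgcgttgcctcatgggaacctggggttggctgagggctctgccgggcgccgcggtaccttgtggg

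Members were expressed at moderate and unequal levels. Per kb of transcript, using the median length of the principal transcripts, their mean level over the 6 libraries had a median of 22.3 CPM per kb and ran from 3.81 to 234 CPM per kb. The large-subunit members had a median level of 24.4 CPM per kb and the small-subunit members 14.8 CPM per kb, and with strand-matched counts 28.4 and 16.8 CPM per kb. Proteins with a bacterial counterpart (46 members) had a median level of 27.8 CPM per kb, against 17.2 CPM per kb for the 30 found only in mitochondrial ribosomes. The ranges overlapped widely, from 3.81 to 167.2 and from 4.01 to 234 CPM per kb.

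At the top stood Mrpl42, a large-subunit protein found only in mitochondrial ribosomes, at 234 CPM per kb. It was measured at 173.6, 147.5 and 161.1 CPM in mutants and 168.5, 113.2 and 167.4 CPM in controls, and the groups overlapped. Mrps21, the counterpart of bacterial S21, followed at 167.2 CPM per kb, with 86.0, 74.8 and 67.8 CPM in mutants and 83.0, 63.4 and 72.9 CPM in controls. Mrpl30, the counterpart of bacterial L30, came next at 124.5 CPM per kb, with 83.8, 77.2 and 84.1 CPM in mutants and 95.6, 72.2 and 81.7 CPM in controls. These 3 genes have short transcripts, and in each of them the groups overlapped. The lowest levels belonged to Mrpl19 (3.81 CPM per kb), Mrps25 (4.01 CPM per kb) and Mrps35 (5.05 CPM per kb), whose annotated transcripts are the longer ones, at 4162 to 6073 bases against 446.5 to 663.5 bases in the top 3. Mrps25 stood at 25.5, 25.3 and 22.6 CPM in mutants and 29.4, 18.2 and 25.0 CPM in controls. Mrps35 stood at 21.5, 17.8 and 22.5 CPM in mutants and 20.4, 20.4 and 23.7 CPM in controls. Levels per kb depend on the annotated length, and the muscle's own transcript ends were not measured here.

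**Figure D1:**
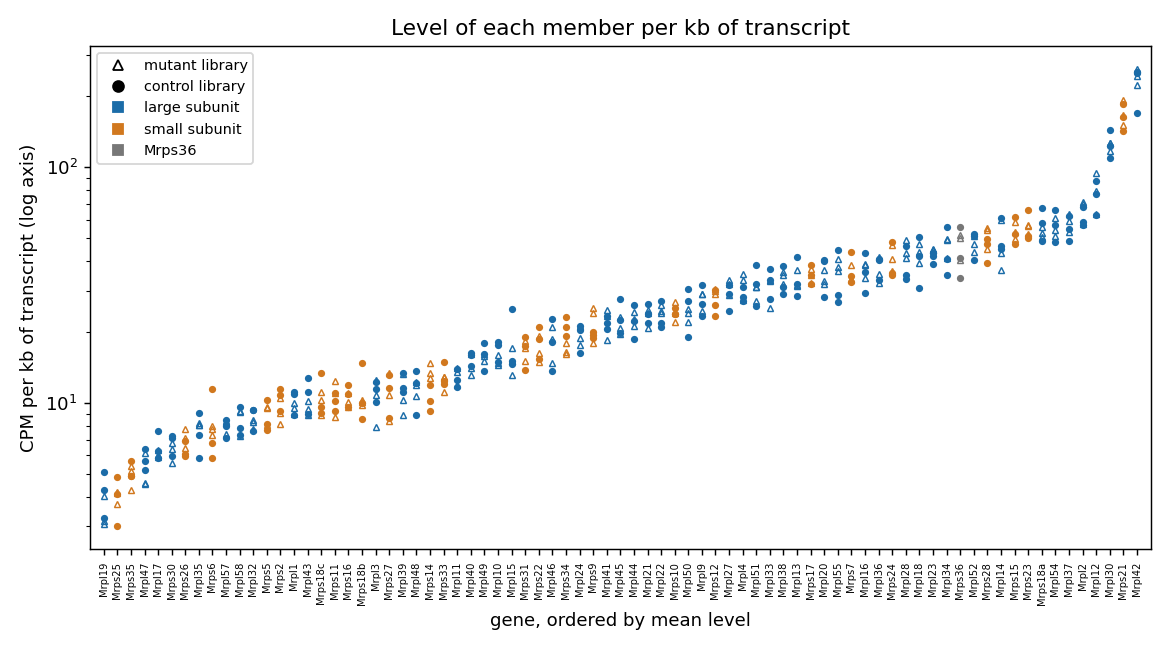
Level of each of the 77 members in each library, in CPM per kb of transcript on a log axis, with genes ordered by mean level, open triangles for mutant libraries and filled circles for control libraries, coloured by subunit. Mean levels run from 3.81 to 234 CPM per kb, and the ranges of mutant and control symbols overlap for every member except Mrps14, Mrpl23 and Mrps34.

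The abundance of the members as a whole did not separate the groups. Their CPM summed to 2981, 2598 and 2941 in mutant replicates 1, 2 and 3 and to 3261, 2483 and 2773 in control replicates 1, 2 and 3. Both the highest and the lowest sum belonged to a control. The means were 2840 ± 211 CPM in mutants and 2839 ± 394 CPM in controls (SD, n = 3 each), a ratio of 1.00. The large subunit summed to 2104, 1832 and 2102 CPM in mutants and 2346, 1755 and 1984 CPM in controls, a ratio of 0.992. The small subunit summed to 841.8, 737.5 and 802.1 CPM in mutants and 876.4, 704.3 and 759.8 CPM in controls, a ratio of 1.02. The subunits therefore had the same order of libraries at both ends, with control replicate 1 highest and control replicate 2 lowest.

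Most of the variation lay between animals of 1 group. The median deviation of the members from their own mean, in log2 CPM, was 0.08, -0.12 and 0.06 in mutant replicates 1, 2 and 3 and 0.21, -0.16 and -0.04 in control replicates 1, 2 and 3. Control replicate 1 was the highest library for 50 members and control replicate 2 the lowest for 38. Between these controls, 72 of 77 members were higher in replicate 1, with a median log2 ratio of 0.35. The pair was picked as the highest and the lowest library, so an uneven count was built in. Mutant replicates 1 and 2, both female, differed in the same way, with 75 of 77 members higher in replicate 1 and a median log2 ratio of 0.19. The share of all genes tested with these directions was not computed for either pair.

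**Figure D2:**
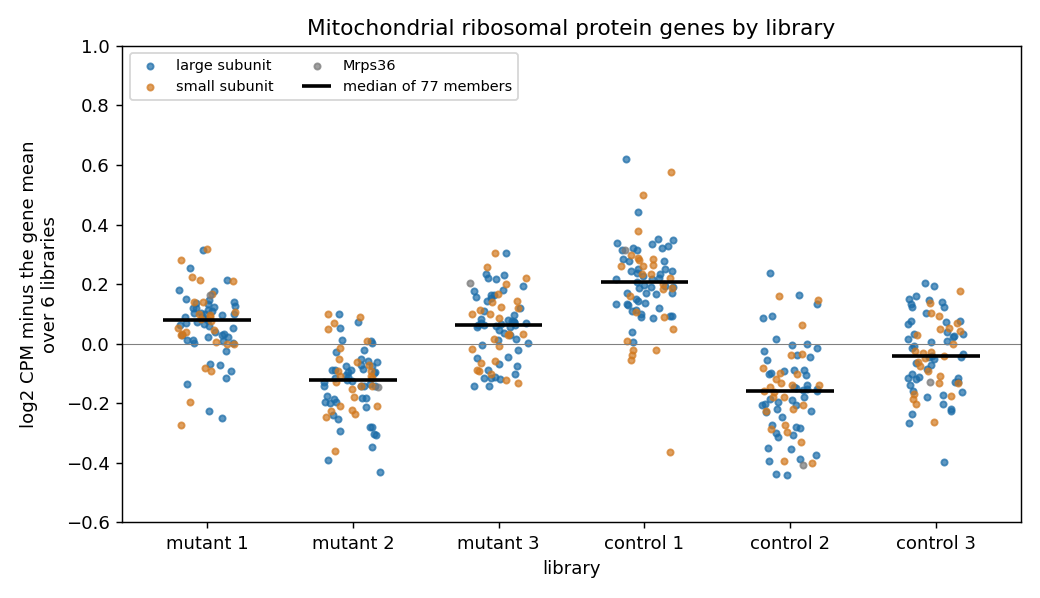
Deviation of each of the 77 members from its own mean over the 6 libraries, in log2 CPM, by library, with points coloured by subunit and a black line at the median. The medians span -0.16 to 0.21 within controls and -0.12 to 0.08 within mutants, and points of both subunits follow them.

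The members moved partly together over the 6 libraries. The median Pearson r between pairs of members was 0.57, as a description over 6 libraries. All genes of 1 library share its depth and dissection. The same measure was 0.86 among the nuclear subunits of oxidative phosphorylation and 0.60 among the cytosolic ribosomal proteins. Against the median of the other members, 65 of 77 had an r above 0.5. Mrps14 was the 1 member with a negative r, at -0.11, followed by Mrps17 at 0.03 and Mrps10 at 0.21, and Mrpl58 was the highest at 0.96.

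No member passed the test between the groups. With edgeR's quasi-likelihood test and Benjamini-Hochberg adjustment over 15589 genes, 0 of 77 members had an adjusted p below 0.05, against 0.199% of all genes tested (31 genes, of which 29, or 0.186%, were lower and 2, or 0.0128%, higher in mutants). The smallest adjusted p of a member was 0.655. DESeq2 also called 0 members, among 184 of the 15589 genes tested. With so few genes called in all, 0 among 77 members says little. At an unadjusted p below 0.05 there were 2 members (2.60%), Mrps14 and Mrps34, against 6.94% of all genes tested. Mrps14 was higher in mutants, as were 3.25% of all genes at that p, and Mrps34 lower, as were 3.69%. The groups did not overlap in 3 members (3.90%), against 12.1% of all genes tested. Mrps14 and Mrpl23 were the 2 with mutants above controls, against 5.97% of all genes, and Mrps34 the 1 with mutants below, against 6.09%. Of the members, 42 (54.5%) had a fold change below 0 and 35 above, against 50.2% of all genes tested below 0. The median log2 fold change of the members was -0.02, against 0.00 for all genes tested, and the members ran from -0.32 to 0.38. With upper-quartile scaling the members' median was 0.01, against 0.03 for all genes tested. That count of 42 depended on single animals. It was 23 without control replicate 1, 55 without control replicate 2 and 26 without mutant replicate 2. The 28 members named were picked by p, level per kb, set role or count, or after their values were seen. Of these, 25 had a log2 fold change that moved by more than 1.5 times under at least 1 of 16 alternative settings. Mrps14, Mrps34 and Mrpl10 did not. Values near 0, such as -0.0046 for Mrpl46, pass such a ratio easily, so it says little about small fold changes.

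The data set a bound on the size of the difference between these groups for each gene. It comes from a fit without sex, and 2 of the 3 mutants but no control were female. The bound therefore does not separate the mutation from sex or background. With sex as a covariate, the log2 fold change went from 0.06 to 0.32 for Mrpl12 and from 0.06 to -0.11 for Mrps21. Intervals from that fit are not given here. Each member's own 95% interval for the log2 fold change, taken from the edgeR fit and not adjusted for the number of genes, lay within -1 to 1, which is a change of less than 2-fold in either direction. This held for 77 of 77 members, against 63.4% of all genes tested and 85.4% of the 7974 genes in the same range of mean CPM. Within -0.585 to 0.585, or 1.5-fold, lay 66 members (85.7%), against 33.1% of all genes tested and 55.1% of genes in the same range. The lowest bound of any member was -0.82, for Mrpl15, and the highest was 0.71, for Mrps14. The median size of a member's log2 fold change was 0.09, against 0.14 in the same range of mean CPM, and its median SE was 0.15 against 0.17.

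**Figure D3:**
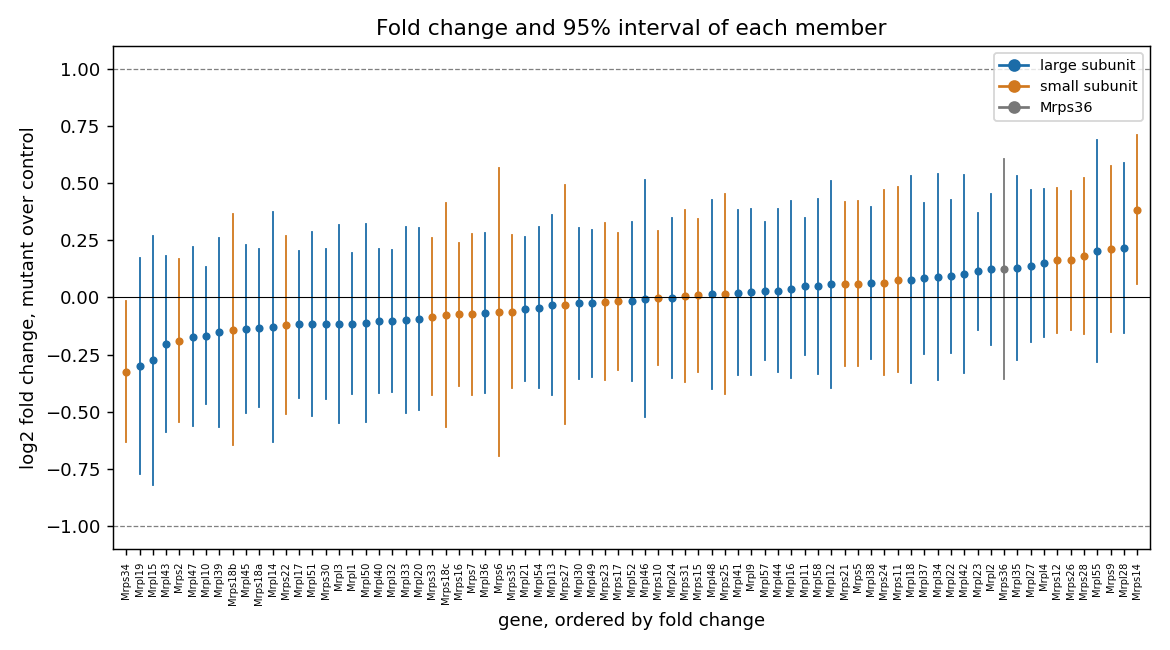
Log2 fold change of each member, mutant over control, with its 95% interval from the edgeR fit, ordered from Mrps34 at -0.32 to Mrps14 at 0.38 and coloured by subunit; dashed lines mark 2-fold. Every interval lies between the dashed lines, and the intervals of Mrps34 and Mrps14 are the ones that leave out 0.

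Among small-subunit proteins, Mrps14, the counterpart of bacterial S14 in the head of the subunit, had the smallest p. It was measured at 44.5, 38.3 and 40.1 CPM in mutants and 27.8, 30.7 and 35.7 CPM in controls. All mutant libraries lay above all control libraries. The means were 41.0 ± 3.20 CPM in mutants and 31.4 ± 4.02 CPM in controls (SD, n = 3 each). Its log2 fold change was 0.38 ± 0.14 (SE), with an unadjusted edgeR p of 0.0264 and an adjusted p of 0.655, so it did not pass the test. Over 16 alternative settings the log2 fold change stayed between 0.30 and 0.48 and the adjusted p between 0.54 and 0.9999. Counted on its own strand, the gene gave 42.4, 37.0 and 36.6 CPM in mutants and 25.7, 29.0 and 31.9 CPM in controls, with a log2 fold change of 0.39 and an edgeR adjusted p of 0.648. The authors' deposited table lists Mrps14 with a log2 fold change of 0.38 and an unadjusted p of 0.0382.

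Mrps34, a small-subunit protein found only in mitochondrial ribosomes and needed in mice for a stable small subunit, was the lowest. It was measured at 15.1, 14.9 and 16.6 CPM in mutants and 21.3, 19.4 and 17.7 CPM in controls. Here too the groups did not overlap, with mutants below controls. The means were 15.5 ± 0.916 CPM in mutants and 19.4 ± 1.82 CPM in controls (SD, n = 3 each), with a log2 fold change of -0.32 ± 0.13 (SE), an unadjusted edgeR p of 0.0413 and an adjusted p of 0.695. Its unstranded count is less than its strand-matched count, which gave a smaller difference and is described with the other overlapping genes.

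Other small-subunit members showed smaller differences. Mrps9, the counterpart of bacterial S9, stood at 35.8, 25.5 and 34.3 CPM in mutants and 28.3, 26.7 and 27.6 CPM in controls, and mutant replicate 2 lay below every control (log2 fold change 0.21). Mrps28, which takes the place of bacterial S1, stood at 42.4, 35.4 and 43.4 CPM in mutants and 37.2, 30.7 and 38.9 CPM in controls (log2 fold change 0.18). Mrps26, found only in mitochondrial ribosomes, stood at 33.0, 30.4 and 27.5 CPM in mutants and 29.6, 25.6 and 26.1 CPM in controls (log2 fold change 0.16). In all 3 of these genes the groups overlapped. With sex as a covariate the log2 fold change was 0.32 for Mrps9, 0.29 for Mrps28 and 0.02 for Mrps26, and with 1 library left out it was as low as 0.12, 0.09 and 0.10 in that order. Mrps12, whose protein sits at the decoding site and whose promoter window is printed above, stood at 24.0, 23.3 and 24.3 CPM in mutants and 24.3, 21.0 and 18.8 CPM in controls (log2 fold change 0.16, and 0.07 to 0.26 with 1 library left out). Mrps2, the counterpart of bacterial S2, stood at 16.9, 18.8 and 21.9 CPM in mutants and 24.0, 19.3 and 22.4 CPM in controls (log2 fold change -0.19). Mutant replicate 3, the male mutant, lay among the controls for Mrps2, while the female mutants lay below them, and the log2 fold change was -0.0016 with sex as a covariate. Mrps6, the member with the fewest counts, stood at 6.74, 6.17 and 6.57 CPM in mutants and 9.69, 4.94 and 5.75 CPM in controls, with controls on both sides of the mutants. As a subunit, 14 small-subunit members had a fold change below 0 and 12 above, with a median log2 fold change of -0.01.

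The large subunit had 28 members with a fold change below 0 and 22 above, and a median log2 fold change of -0.02. With all 6 libraries the lowest fold change of the subunit was that of Mrpl19, the counterpart of bacterial L19, at 15.8, 15.3 and 20.2 CPM in mutants and 25.5, 16.3 and 21.4 CPM in controls (log2 fold change -0.30, edgeR adjusted p = 0.837). Its log2 fold change was -0.15 without control replicate 1, -0.46 without control replicate 2 and -0.06 with sex as a covariate or with males only. Mrpl15, the counterpart of bacterial L15, stood at 63.2, 55.5 and 71.6 CPM in mutants and 105.2, 61.8 and 63.2 CPM in controls (log2 fold change -0.27, edgeR adjusted p = 0.881). Control replicate 1 alone lay above the rest for Mrpl15, and without it the log2 fold change was 0.02, against -0.10 with sex as a covariate. Mrpl28, the counterpart of bacterial L28, had the highest fold change of the large subunit, at 52.3, 44.1 and 46.3 CPM in mutants and 49.3, 36.0 and 37.5 CPM in controls (log2 fold change 0.22, edgeR adjusted p = 0.847), and its log2 fold change was 0.37 without control replicate 1 and 0.13 without control replicate 2. Mrpl43, found only in mitochondrial ribosomes, stood at 14.3, 12.4 and 13.2 CPM in mutants and 17.8, 15.6 and 12.6 CPM in controls (log2 fold change -0.20, and -0.09 without control replicate 1 and -0.33 without control replicate 3). In these 4 genes the groups overlapped. Mrpl23, the counterpart of bacterial L23 near the exit of the peptide tunnel, was another member whose groups did not overlap and was singled out after its values were seen. It stood at 31.1, 30.9 and 30.9 CPM in mutants and 29.9, 29.0 and 27.0 CPM in controls, with a log2 fold change of 0.11 ± 0.11 (SE), 0.07 without control replicate 3, and an unadjusted edgeR p of 0.329.

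The stalk of the large subunit, which recruits translation factors, contains Mrpl10 and Mrpl12. Mrpl10 stood at 27.3, 24.8 and 25.2 CPM in mutants and 31.0, 25.5 and 30.2 CPM in controls (log2 fold change -0.17, edgeR adjusted p = 0.857). Mrpl12 stood at 104.5, 83.1 and 124.3 CPM in mutants and 115.3, 82.9 and 101.5 CPM in controls (log2 fold change 0.06). The pair thus had fitted values of opposite sign and neither passed the test. Mrpl45, which anchors the tunnel exit to the inner membrane, stood at 50.4, 47.6 and 56.6 CPM in mutants and 67.2, 48.4 and 54.8 CPM in controls (log2 fold change -0.14). Its log2 fold change was -0.0064 without control replicate 1, -0.0046 with sex as a covariate and -0.24 without control replicate 2. Mrpl58, a peptidyl-tRNA hydrolase that frees stalled ribosomes, stood at 23.8, 18.9 and 23.9 CPM in mutants and 25.0, 18.9 and 20.4 CPM in controls (log2 fold change 0.05). For both genes control replicate 1 was the highest library.

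The Mrps18 paralogs occupy different sites, Mrps18a in the large subunit and Mrps18b and Mrps18c in the small one. Mrps18a was the most abundant, at 49.3, 46.3 and 44.9 CPM in mutants and 59.5, 43.2 and 51.5 CPM in controls (log2 fold change -0.13). Mrps18b stood at 10.6, 10.9 and 11.1 CPM in mutants and 15.9, 9.22 and 10.8 CPM in controls (log2 fold change -0.14). Mrps18c stood at 6.56, 5.68 and 7.13 CPM in mutants and 8.54, 6.12 and 5.77 CPM in controls (log2 fold change -0.08). Per kb the levels were 55.6, 10.6 and 10.4 CPM per kb in the unstranded counts of Mrps18a, Mrps18b and Mrps18c, in that order. On the gene's own strand Mrps18b stood at 19.95 CPM per kb, Mrps18c at 9.55 and Mrps18a at 52.0 CPM per kb. Mrps18b shares exon bases with Gm16279 on the opposite strand. Mrps18c shares exon bases with Gm43511 on its own strand, which strand-matched counts do not resolve, so its level may be too low. The log2 fold change of Mrps18a was -0.02 without control replicate 1 and -0.24 without control replicate 2. In all 3 paralogs control replicate 1 was the highest library and the groups overlapped.

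Mrps11 and Mrpl46, the head-to-head pair printed above, were chosen after their values were seen. Mrps11, the counterpart of bacterial S11, stood at 11.7, 9.23 and 13.1 CPM in mutants and 11.7, 9.79 and 10.7 CPM in controls (log2 fold change 0.08). Mrpl46, a large-subunit protein found only in mitochondrial ribosomes, stood at 21.2, 16.7 and 23.8 CPM in mutants and 25.8, 15.5 and 20.6 CPM in controls (log2 fold change 0.00). Both were low in mutant replicate 2 and in control replicate 2, the lowest libraries for 25 and 38 of the 77 members. In GENCODE M21 the pair shares exon bases on opposite strands, and unstranded counting leaves such read pairs unassigned. On its own strand Mrps11 had 16.3, 13.6 and 17.3 CPM in mutants and 16.5, 13.5 and 15.5 CPM in controls (log2 fold change 0.03). Mrps36 stood at 35.2, 28.4 and 36.2 CPM in mutants and 39.2, 23.7 and 28.8 CPM in controls (log2 fold change 0.12).

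The libraries were directional, but the deposited matrix holds unstranded counts, and this bears on several members. In GENCODE M21, 27 of the 77 members share exon bases with a gene on the opposite strand, and unstranded counting leaves read pairs in such overlaps unassigned. Overlaps on the same strand, as in Mrps6 and Mrps18c, are resolved by neither kind of count. Mrps34 also shares exon bases with Nme3 on its own strand, so its strand-matched count may still be too low. In the column that follows the transcript's strand, 12 members had more than 1.2 times their unstranded count. The ratio was 3.16 for Mrps34, which overlaps Mapk8ip3, 2.98 for Mrpl43, which overlaps Twnk, the gene of the mitochondrial DNA helicase, and 2.01 for Mrps18b. Mrps27, with 1.71, and Mrpl18, with 1.66, came next, and the median over all members was 0.999.

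**Figure D4:**
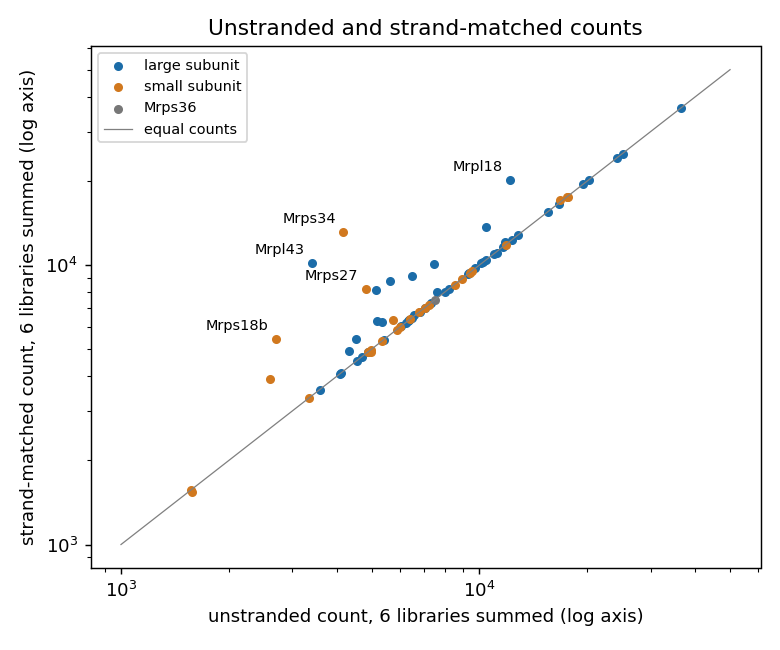
Read pairs of each member summed over the 6 libraries, with the unstranded count on the horizontal axis and the strand-matched count on the vertical axis, both on log axes, and a line where they are equal. Most members lie on the line, and Mrps34, Mrpl43, Mrps18b, Mrps27 and Mrpl18 lie above it, by 3.16 to 1.66 times.

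With strand-matched counts, Mrps34 had 48.1, 44.5 and 50.6 CPM in mutants and 60.1, 56.3 and 50.6 CPM in controls. The replicates 3 of both groups then had nearly equal values. The log2 fold change was -0.25 ± 0.13 (SE), with an unadjusted edgeR p of 0.0858 and an adjusted p of 0.778. Mrpl43 had 41.4, 37.7 and 37.2 CPM in mutants and 46.8, 41.1 and 35.9 CPM in controls, with a log2 fold change of -0.12. For 4 members more than 10% of the stranded read pairs lay on the opposite strand: 76.4% for Mrpl47, 44.2% for Mrps25, 24.6% for Mrpl48 and 21.1% for Mrpl46, against a median of 0.255%. Mrpl47, which shares exon bases with Ndufb5 and Actl6a, had 17.3, 16.9 and 21.4 CPM on its own strand in mutants and 22.3, 18.7 and 19.7 CPM in controls. On the opposite strand it had 71.9, 55.8 and 68.0 CPM in mutants and 73.7, 55.0 and 54.9 CPM in controls. No member was called with strand-matched counts.

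The rest of the mitochondrial translation system was described by lists of named genes, and in each of them 0 genes had an adjusted p below 0.05. Genes named from these lists are those with the smallest edgeR p. Among all genes tested, 6.94% had an unadjusted p below 0.05. Of 5 mitochondrial ribosomal proteins with other symbols, 3 had a fold change below 0 and 0 an unadjusted p below 0.05. Gadd45gip1, a large-subunit protein at the tunnel exit, stood at 3.60, 3.11 and 3.87 CPM in mutants and 2.37, 2.74 and 2.57 CPM in controls (log2 fold change 0.46, unadjusted edgeR p of 0.061, adjusted p of 0.749). With strand-matched counts its log2 fold change was 0.90 (edgeR adjusted p = 0.102), and the adjusted p of the 16 alternatives ran from 0.102 to 0.9999. Aurkaip1, a small-subunit protein, stood at 51.1, 44.0 and 45.9 CPM in mutants and 46.8, 52.8 and 48.1 CPM in controls. The groups did not overlap for Gadd45gip1, with mutants above controls as in 5.97% of all genes tested, and overlapped for Aurkaip1. Of 27 assembly factors, 10 had a fold change below 0, and the median log2 fold change was 0.05, running from -0.04 without control replicate 2 to 0.13 without control replicate 1. The 1 with an unadjusted p below 0.05 was Noa1, a GTPase of small-subunit assembly, at 22.0, 22.9 and 25.0 CPM in mutants and 20.6, 19.0 and 17.2 CPM in controls (log2 fold change 0.30, edgeR adjusted p = 0.719).

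Of 14 tested translation factors and insertion factors, 10 had a fold change below 0, with a median log2 fold change of -0.03 that ran from -0.11 without mutant replicate 3 to 0.07 without control replicate 1. The 2 with an unadjusted p below 0.05 were Tsfm and Cox18. Tsfm, the factor that recharges the elongation factor Tufm with GTP, stood at 17.9, 14.6 and 15.9 CPM in mutants and 27.9, 19.8 and 21.3 CPM in controls (log2 fold change -0.51, edgeR adjusted p = 0.632). Cox18, which inserts a newly made cytochrome oxidase subunit into the inner membrane, stood at 6.74, 5.93 and 5.52 CPM in mutants and 7.07, 10.2 and 12.7 CPM in controls (log2 fold change -0.72, edgeR adjusted p = 0.615). Mutants lay below controls without overlap in both genes, as in 6.09% of all genes tested, and neither passed the test. Both were picked for the smallest p of their list. Of 21 mitochondrial aminoacyl-tRNA synthetases, 10 had a fold change below 0 and 0 an unadjusted p below 0.05. Of 12 genes of mitochondrial DNA transcription and maintenance, 3 had a fold change below 0 and 0 an unadjusted p below 0.05. Their median log2 fold change was 0.11, and -0.07 with sex as a covariate. Polrmt, the mitochondrial RNA polymerase, stood at 30.3, 31.0 and 26.6 CPM in mutants and 27.4, 25.7 and 22.3 CPM in controls (log2 fold change 0.22, edgeR adjusted p = 0.815, and a log2 fold change of 0.08 with sex as a covariate and 0.14 without control replicate 3). Of 10 regulators of mitochondrial biogenesis, 5 had a fold change below 0 and 1 an unadjusted p below 0.05. This was Ppargc1b, a transcriptional coactivator of mitochondrial genes, at 10.4, 7.94 and 17.8 CPM in mutants and 4.80, 8.72 and 6.33 CPM in controls (log2 fold change 0.87, edgeR adjusted p = 0.695), with mutant replicate 2 among the controls. With sex as a covariate its log2 fold change was 1.43, and leaving out mutant replicate 3 gave 0.47.

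The median deviation of the mitochondrial mRNAs, which the ribosome translates, ran from -0.20 to 0.28 log2 CPM over mutants and from -0.44 to 0.84 over controls, a wider range than that of the ribosome's proteins. The small-subunit rRNA mt-Rnr1 stood at 1585, 1172 and 1192 CPM in mutants and 1610, 989.4 and 825.4 CPM in controls. The large-subunit rRNA mt-Rnr2 stood at 3868, 3114 and 2789 CPM in mutants and 4706, 2803 and 2785 CPM in controls. Both were highest in control replicate 1. The 13 mRNAs of mitochondrial DNA summed to 62410, 50950 and 45220 CPM in mutants and 91860, 38480 and 48760 CPM in controls. All 13 had a fold change below 0, with a median log2 fold change of -0.18 and 0 at an unadjusted edgeR p below 0.05. Control replicate 1 set this direction, since without it the median was 0.31. Some of these mRNAs have near-identical nuclear copies, and read pairs that map to several places were not counted. Counts of mt-Co2, mt-Co3, mt-Atp6, mt-Atp8, mt-Nd3 and mt-Nd4l were only 0.83 to 31.4 CPM over the libraries, against 13370 to 31070 CPM for mt-Co1. Their fold changes rest on the few read pairs counted, yet they enter the median deviation, the median log2 fold change and the count of 13 above.

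Nuclear subunits of oxidative phosphorylation, whose products assemble with those of the mitochondrial ribosome, summed to 25490, 19400 and 25710 CPM in mutants and 26430, 20110 and 21260 CPM in controls, and 22 of 78 tested had a fold change below 0 and 0 an unadjusted edgeR p below 0.05. Their median log2 fold change of 0.05 ran from -0.03 without mutant replicate 3 to 0.18 without mutant replicate 2. Their median deviation by library, 0.17, -0.25 and 0.15 in mutants and 0.23, -0.20 and -0.10 in controls, had the sign of that of the mitochondrial ribosomal proteins in every library. Of 84 tested cytosolic ribosomal proteins, 72 had a fold change below 0, with a median log2 fold change of -0.14, which was -0.08 without control replicate 2 and -0.22 without control replicate 3. At an unadjusted edgeR p below 0.05, 2 of them were higher and 3 lower in mutants. Their median deviation was 0.03, -0.13 and -0.08 in mutants and 0.10, 0.20 and -0.07 in controls. The families had opposite signs in control replicate 2, where the cytosolic set was high and the mitochondrial set low, and in mutant replicate 3, where the mitochondrial set was high and the cytosolic set low. Rps26 stood at 153.3, 137.0 and 143.0 CPM in mutants and 95.7, 94.6 and 78.0 CPM in controls (log2 fold change 0.69, edgeR adjusted p = 0.273, DESeq2 adjusted p = 0.00422). Rps26 has pseudogene copies, and its count holds only read pairs placed uniquely.

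**Figure D5:**
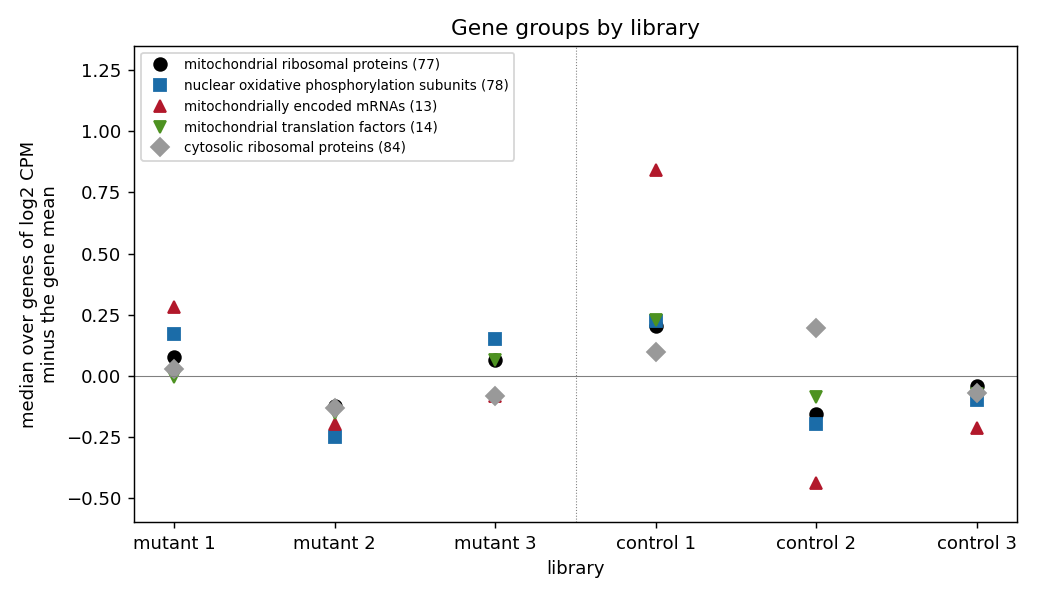
Median over the genes of each group of log2 CPM minus the gene's mean over the 6 libraries, by library, for the 77 mitochondrial ribosomal proteins, 78 nuclear oxidative phosphorylation subunits, 13 mitochondrially encoded mRNAs, 14 mitochondrial translation factors and 84 cytosolic ribosomal proteins. Control replicate 1 holds the highest value of the mitochondrial mRNAs (0.84), and in control replicate 2 the cytosolic ribosomal proteins (0.20) lie above the mitochondrial ribosomal proteins (-0.16).

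Marker genes of fibre types and other cells were set beside the members. Genes of slow and oxidative fibres summed to 9367, 2992 and 8231 CPM in mutants and 8038, 5620 and 1975 CPM in controls, and mutant replicate 2, low in the members, was also low in these. Control replicate 3 was the lowest for the slow genes and near the middle for the members. The share of counts from mitochondrial DNA was 6.96%, 5.72% and 4.81% in mutants and 9.75%, 4.28% and 5.03% in controls, with the highest and the lowest share in the controls that were highest and lowest for the members. All 12 macrophage, 9 adipocyte and 8 endothelial markers were detected in every library, and none passed the test. Of these, 10 of 12 macrophage markers (median log2 fold change 0.34), 9 of 9 adipocyte markers (0.86) and 8 of 8 endothelial markers (0.24) had a fold change above 0. Among all genes tested, 50.2% had a fold change below 0. The medians depended on single animals and, with 1 library left out, ran from 0.07 to 0.60, 0.46 to 1.41 and 0.06 to 0.35 in that order. With sex as a covariate they were 0.13, 0.79 and 0.50. Macrophage markers summed to 247.4, 145.9 and 185.6 CPM in mutants and 132.1, 118.0 and 189.8 CPM in controls, and adipocyte markers to 497.4, 672.7 and 665.7 CPM in mutants and 617.6, 288.7 and 372.4 CPM in controls. Endothelial markers summed to 334.1, 297.1 and 422.1 CPM in mutants and 285.2, 289.6 and 287.2 CPM in controls, and these sums did not overlap. The part of fibre type and of these other cells in the members' values was not tested.

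In the authors' deposited table, 77 members are listed, 0 of them with an adjusted p below 0.05, among 205 genes below it in all. The share of these 205 among all its genes was not computed, so the 0 is a description only. Its log2 fold changes for the members run from -0.33 to 0.38 with a median of -0.02, and each had the sign found here.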

How the data were processed

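Gene expression was measured by RNA-seq in 3 mutant and 3 control muscles, each 1 animal per the labels' protocols. The deposited values are raw counts of read pairs, given as 1 matrix and as a table per library with unstranded and strand-specific columns. The matrix equalled the unstranded column in all 57010 genes. Alignment tools in the submitters' processing notes are STAR 2.7.11b with the build GRCm39, beside DESeq2 1.50.2 under R 4.5.2 and quality reports from MultiQC 1.28 and FastQC 0.12.1. Which gene annotation was used is not given in the sources at hand. The authors' deposited results table holds log2 fold changes, p-values, a Wald score and a mean normalized signal per gene. Entries that name no gene (18.5% to 22.3% of read pairs) stayed out of library sizes. Multimapping pairs (5.83% to 9.78%) are not in the counts.

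Counts were tested with edgeR 4.0.16 (R 4.3.3; TMM, filterByExpr at a minimum count of 10, robust quasi-likelihood F-test, no covariate) with Benjamini-Hochberg adjustment over 15589 genes, and called at an adjusted p below 0.05. CPM use TMM-scaled library sizes, and CPM of strand-matched counts use the plain total of those counts. A count of 3 in 1 library is 0.0686 to 0.0856 CPM, which covers counting error only. Symbols and principal transcript lengths came from GENCODE M21 (GRCm38), which named 52081 of 57010 IDs. Coordinates are those of RefSeq windows on GRCm38.p6 and were not mixed with the counts' build. DESeq2 1.42.0, limma 3.58.1 (voom), other scalings and filters, sex, the replicate block, males only, strand-matched counts and each library left out were the alternatives. The procedure was tested on simulated data with known changes, and plots were drawn with matplotlib 3.10.9.

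Genes named are the 12 members with the smallest p, the 3 highest and 3 lowest per kb, the Mrps18 paralogs, members of set roles, the members with the fewest counts, and 1 or 2 genes per list with the smallest p, of which the main ones are given. Members and lists were chosen with earlier results of these data known.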

Additional observations from a re-analysis of the deposited data

How the results depend on the processing

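The count of 0 members at an adjusted p below 0.05 held in all 16 alternatives run, whereas the number of all genes called (31) was 184 with DESeq2, 79 without a filter on low counts, 11 with the replicate block, 0 with sex as a covariate (882 at an unadjusted edgeR p below 0.05), 0 with males only (594), and 6 to 49 with 1 library left out. With males only, the lone mutant is assumed to vary like the controls. Members at an unadjusted p below 0.05 (2) numbered 1 with upper-quartile scaling, 1 without the filter, 1 with the replicate block, 1 with strand-matched counts, 0 with sex, 0 with males only and 0 to 2 with 1 library left out. Members with a fold change below 0 (42) numbered 23 to 55 with 1 library left out. The members' median log2 fold change stayed within -0.10 to 0.10, the large subunit's within -0.11 to 0.06 and the small subunit's within -0.09 to 0.11. The cause of each change was not tested.

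The samples were treated as unpaired, although both groups share replicate numbers. Same-numbered libraries deviated with r = 0.251, -0.0561 and 0.234 over 15589 genes. Replicates 1 and 3 of each group correlated best with their own number in the other group, and replicates 2 did not. With 3 animals per group this cannot settle whether same-numbered samples share a batch. With the replicate block the members' median log2 fold change was -0.01, 40 were below 0, and Mrpl46 was at a log2 fold change of 0.0105.

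Signs of log2 fold changes reversed as follows. With sex as a covariate and with males only, in that order, the values were -0.097 and -0.095 for Mrps25, 0.064 and 0.066 for Mrps35, 0.017 and 0.019 for Mrpl30, -0.11 and -0.11 for Mrps21, 0.065 and 0.068 for Mrps18c, 0.21 and 0.21 for Mrpl46, and 0.38 and 0.38 for Mylpf, a fast fibre marker. Males only gave 0.00048 for Mrps2. Upper-quartile scaling gave 0.0049 for Mrpl30 and 0.024 for Mrpl46, and limma-voom gave 0.0045 for Mrps6 and 0.016 for Mrpl46. With 1 library left out the ranges were -0.41 to 0.015 for Mrpl15, -0.15 to 0.17 for Mrps25, -0.13 to 0.032 for Mrps35, -0.12 to 0.081 for Mrpl30, -0.035 to 0.16 for Mrps21, -0.064 to 0.19 for Mrpl42, -0.30 to 0.11 for Mrps18b, -0.19 to 0.11 for Mrps18c, -0.092 to 0.19 for Mrpl12, -0.030 to 0.34 for Mrps36, -0.033 to 0.17 for Mrpl58, -0.25 to 0.28 for Mrps6, -0.039 to 0.20 for Mrps11, -0.17 to 0.18 for Mrpl46, -0.54 to 0.016 for Mylpf and -1.28 to 0.11 for mt-Atp8. Dysf kept its sign throughout, but missed the threshold with sex (log2 fold change -2.38), with males only (-2.38) and without mutant replicate 1, 2 or 3 (edgeR adjusted p = 0.228, 0.178 and 0.0637).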
